A study of Mus musculus with 23 samples.

Results

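The genes of synaptic vesicles and of the release machinery were examined in mouse brain RNA as a list of 28 members, chosen by name among synaptic vesicle, SNARE and active zone genes, of 18578 genes in all. The list was chosen with earlier results of these data known. All 28 members passed the filter on low values, a mean of at least 10 normalized counts, which left 17118 genes to test. The 23 libraries came from brains of male C57BL/6J mice. The HT shock group (6 libraries) was heterozygous, called heterotype in the labels, for the Grin2b allele C456Y and received foot-shock, a brief electric current delivered through the cage floor. The HT control group (6 libraries) carried the same allele without shock. The WT shock group (5 libraries) was wild type with foot-shock, and the WT control group (6 libraries) was wild type without it. The labels give postnatal day 17 for every library, whereas the series text speaks of adult ages. Neither the brain region, the time between shock and dissection nor the number of animals per library is given. Whether the libraries are from different animals is not stated; the p-values below therefore describe variation among libraries, part of which could be technical.

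Neurotransmitter is released when vesicles, docked and primed at the active zone of a presynaptic terminal, fuse with the plasma membrane after calcium enters. SNARE proteins of vesicle and plasma membrane zip together to drive fusion, synaptotagmins sense the calcium, complexins hold the assembled SNAREs, and Munc13 and RIM proteins prime vesicles and place calcium channels beside them. Many of these proteins come as pairs of related genes that differ between regions: in the mouse brain, Syt1 and Vamp2 predominate in the forebrain, and Syt2 and Vamp1 are prominent in the brainstem and other caudal regions.

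Sequence upstream of the start site is shown for the 6 members that differed between HT shock and WT shock both as fitted and after a correction for transcript length and GC content. Each run is the 250 bases before the annotated start, taken from RefSeq (GRCm38.p6) and written 5′ to 3′ on the strand of the gene. Capitals mark a cAMP response element (TGACGTCA) or a GC box (GGGCGG or its reverse complement CCGCCC). Positions are Syn1 chrX:20920919-20921168 (minus strand), Stx1a chr5:135023232-135023481 (plus strand), Syp chrX:7638330-7638579 (plus strand), Syt2 chr1:134709050-134709299 (plus strand), Vamp1 chr6:125215331-125215580 (plus strand) and Sv2c chr13:96132578-96132827 (minus strand). Syt2 has 2 windows and the shown one lies inside the annotated gene. The window not shown, chr1:134646362-134646611, lies before the annotated gene and has 76% GC and 3 GC boxes. For Syn1, Vamp1 and Syp, the gene as annotated in GENCODE begins inside the window. Syn1, Stx1a and Syp were higher in HT shock, and Syt2, Vamp1 and Sv2c were lower.
Syn1: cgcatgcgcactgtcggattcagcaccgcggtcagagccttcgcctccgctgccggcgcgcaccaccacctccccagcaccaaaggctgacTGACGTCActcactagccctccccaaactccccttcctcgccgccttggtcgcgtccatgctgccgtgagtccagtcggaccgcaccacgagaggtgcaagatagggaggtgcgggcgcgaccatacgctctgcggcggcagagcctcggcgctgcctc
Stx1a: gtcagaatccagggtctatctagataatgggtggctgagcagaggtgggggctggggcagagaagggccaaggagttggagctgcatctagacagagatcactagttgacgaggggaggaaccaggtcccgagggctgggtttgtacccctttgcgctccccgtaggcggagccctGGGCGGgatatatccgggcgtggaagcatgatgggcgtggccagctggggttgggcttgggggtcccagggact
Syp: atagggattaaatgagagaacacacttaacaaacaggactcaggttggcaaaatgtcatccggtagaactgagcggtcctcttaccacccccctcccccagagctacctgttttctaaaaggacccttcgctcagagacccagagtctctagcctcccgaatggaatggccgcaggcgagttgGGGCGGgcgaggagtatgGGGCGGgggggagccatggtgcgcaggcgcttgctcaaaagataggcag
Syt2: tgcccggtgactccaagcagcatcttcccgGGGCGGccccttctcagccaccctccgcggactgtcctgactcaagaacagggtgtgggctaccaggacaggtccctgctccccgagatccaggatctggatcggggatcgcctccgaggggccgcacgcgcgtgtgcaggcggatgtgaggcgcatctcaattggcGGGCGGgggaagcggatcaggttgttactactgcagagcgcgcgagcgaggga
Vamp1: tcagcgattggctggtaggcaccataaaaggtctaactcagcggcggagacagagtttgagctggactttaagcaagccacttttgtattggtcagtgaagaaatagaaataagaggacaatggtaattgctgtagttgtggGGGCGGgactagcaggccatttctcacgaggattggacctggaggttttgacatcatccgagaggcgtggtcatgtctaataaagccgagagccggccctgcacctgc
Sv2c: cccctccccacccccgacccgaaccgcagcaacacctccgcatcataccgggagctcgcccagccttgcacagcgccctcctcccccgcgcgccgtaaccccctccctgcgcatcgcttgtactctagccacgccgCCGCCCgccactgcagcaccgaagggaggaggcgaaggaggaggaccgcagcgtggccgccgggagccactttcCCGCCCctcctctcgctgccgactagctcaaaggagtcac
The element TGACGTCA occurred, on either strand, in 1 of the 30 windows of the 21 matched members, that of Syn1, and in 1.55% of 32851 windows of this length over all RefSeq genes. A GC box occurred in 17 of the 30 member windows, from 16 members, and in 32.74% of all windows. Among the 6 members it was found upstream of Stx1a, Syp, Syt2, Vamp1 and Sv2c, higher and lower members alike. The GC content of the shown windows was 68% for Syn1, 62% for Stx1a, 56.4% for Syp, 66.4% for Syt2, 50.4% for Vamp1 and 70.8% for Sv2c, against a median of 52.4% over all windows. Other searched motifs were found in 1 member each: the NRF1 palindrome in 1 window of Bsn, the EGR motif GCGTGGGCG in 1 window of Unc13a and TATAAA in 2 windows of Sv2b. Those motifs occurred in 0.78%, 0.54% and 12.37% of all windows. Windows were not found for Doc2a, Doc2b, Rims2, Snap25, Syn3, Syt7 and Vamp2.

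Values are normalized counts, summing to 30.98 M in the lowest and 32.57 M in the highest library, totals that do not show sequencing depth, which is unknown. Grin2b, which encodes a subunit of the NMDA receptor, was detected in every library. Its normalized counts lay at 9874 to 11518 in HT shock, 9556 to 14275 in HT control, 10734 to 14218 in WT shock and 12521 to 15225 in WT control, and they do not distinguish the alleles. Averaged over treatments, Grin2b was lower in HT than in WT by a log2 difference of -0.21 ± 0.06 (SE, limma adjusted p = 0.0209). Between HT shock and WT shock the difference was -0.26 ± 0.08 (SE, limma adjusted p = 0.0507), which did not pass. On the first principal component of all genes (12.9% of the variance), HT control replicate 6 lay at 31.3, beyond the 6 HT shock libraries at 11.4 to 26.0. The other 5 HT control libraries lay at -12.7 to 5.17 and the WT libraries at 1.63 or below. Results that rest on this library are given with and without it. In bulk tissue, fewer cells of a type and less RNA per cell cannot be told apart.

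The members were measured at high levels. Per kilobase of transcript, their median level was 2112 normalized counts, against 184 for all tested genes with a length, and 25 of 28 members lay above that median. Snap25, a SNARE of the plasma membrane, stood highest at 38034 per kilobase, ahead of Vamp2 at 14801 and Syp at 14657. Within pairs, Syt1 had 8779.5 per kilobase and Syt2 943, Vamp2 exceeded Vamp1 at 2998, and Sv2a had 4139 against 319 for Sv2c. The lowest were Unc13b at 121 and Syn3 at 84.5, with Sypl2 below both. Of 15 pan-neuronal markers, which the brain label implies, 15 were in the table, none at 0 in all libraries of a group.

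In HT shock against WT shock, where the genotypes are compared after foot-shock, the release machinery changed in both directions and by modest amounts. Of 28 members 9 passed the test (limma, adjusted p under 0.05 over all genes), which is 32.1%, against a background of 9.28% of all tested genes. Higher in HT shock were Syn1, Stx1a, Vamp2, Syp and Doc2a (5 of 28, background 3.95%), and lower were Syt2, Sv2c, Vamp1 and Rims1 (4 of 28, background 5.33%). Differences ranged from -0.47 to 0.35 on the log2 scale, with 16 members positive and 12 negative. The median difference of the members, 0.005, was close to that of all tested genes, 0.004. Abundant genes were called more often: of the 26 members with a mean of at least 1000 normalized counts 34.6% were called, against 16.6% of the 6483 tested genes at such levels. No test of that difference was made. Since the members were chosen with earlier results of these data known, their share describes the list and is no test of it. Libraries of the 2 genotypes did not overlap for 8 members, 5 higher and 3 lower in HT shock, against a background of 8.57% of tested genes.

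**Figure D1:**
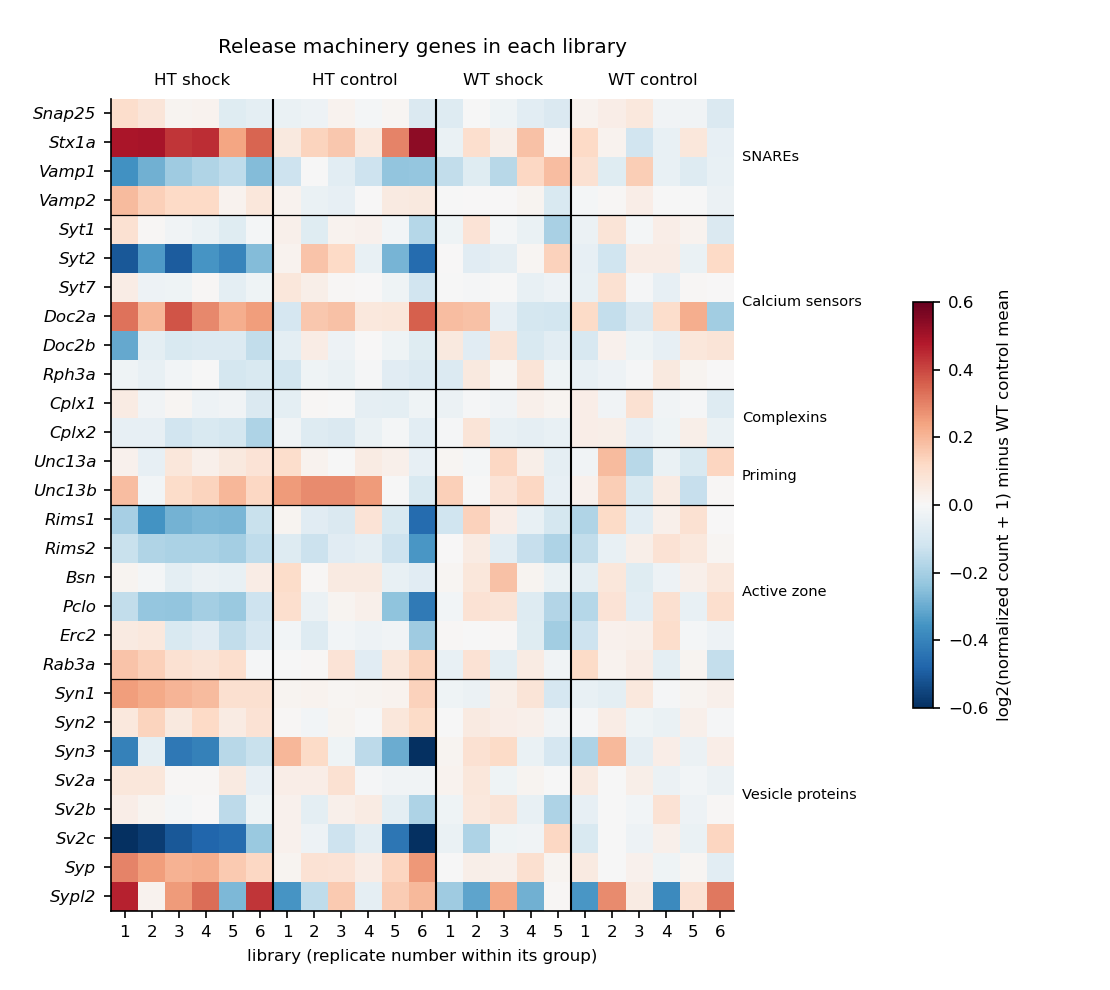
Each cell is the log2(normalized count + 1) of a member (down the page, by role) in a library (across, by group and replicate), minus the mean of the 6 WT control libraries, and colours saturate at -0.6 and 0.6. Stx1a, Syp and Syn1 are red and Syt2, Sv2c and Rims1 blue across the 6 HT shock libraries, and HT control replicate 6 shows the same colours for Stx1a, Syt2 and Sv2c.

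Among the SNAREs, 3 of 4 members passed between the shocked groups. The background was 9.28% of all tested genes and 16.6% of those averaging at least 1000 normalized counts. The pair of vesicle SNAREs differed in opposite directions, and each of their calls was lost in some alternative settings. Stx1a, syntaxin 1A of the plasma membrane (ENSMUSG00000007207, GRCm38 chr5:135023482-135051100, plus strand), had 5367 to 6432 (median 6174) normalized counts in HT shock, against 4439.6, 4894, 4669.6, 5157 and 4585 in WT shock replicates 1 to 5. In the controls it had 4749 to 6608 (median 5055) in HT control and 4214 to 4950.5 (median 4522) in WT control. Every HT shock library lay above every WT shock library, and of the HT control libraries replicate 5 lay within and replicate 6 above the HT shock range. The log2 difference between HT shock and WT shock was 0.35 ± 0.07 (SE, 1.28-fold, limma adjusted p = 0.00539).

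Vamp2, synaptobrevin 2 and the main vesicle SNARE of forebrain terminals (ENSMUSG00000020894, GRCm38 chr11:69088490-69092384, plus strand), had 32413 to 36528 (median 34728) in HT shock, against 31922, 31997, 32063, 32326 and 30048 in WT shock. Its control values were 30943 to 33312 (median 32253) in HT control and 31231 to 32922 (median 31925) in WT control. The shocked groups did not overlap, though the lowest HT shock library lay just above the highest WT shock library. The log2 difference was 0.12 ± 0.03 (1.09-fold, limma adjusted p = 0.0159), and it missed the threshold after the length and GC correction at 0.08 (adjusted p = 0.125). Vamp1, synaptobrevin 1 (ENSMUSG00000030337, GRCm38 chr6:125215551-125245964, plus strand), had 7499 to 8677 (median 8183) in HT shock, against 8704, 9154, 8597, 10497 and 10948 in WT shock. It had 8179 to 9626 (median 8844) in HT control and 9130.5 to 10679 (median 9347) in WT control. The shocked groups overlapped, since the highest HT shock library exceeded the lowest WT shock library, and the 2 highest WT shock libraries were replicates 4 and 5. Vamp1 was lower in HT shock by a log2 difference of -0.23 ± 0.06 (0.85-fold, limma adjusted p = 0.0241), and the call was lost without HT shock replicate 1 or 2 or WT shock replicate 4 or 5, with adjusted p up to 0.0633. Snap25 had 77156 to 87359 (median 82228) in HT shock, against 76987, 81037, 79674, 77799.5 and 76539 in WT shock. These overlapped, and the log2 difference of 0.06 ± 0.03 did not pass (95% interval -0.00097 to 0.13, limma adjusted p = 0.185).

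Of the 6 calcium sensors and C2-domain proteins, 2 passed between HT shock and WT shock. As background, 9.28% of all tested genes passed and 16.6% of those averaging at least 1000 normalized counts. Syt2, the fast calcium sensor of caudal and many inhibitory terminals (ENSMUSG00000026452, GRCm38 chr1:134646677-134762593, plus strand), had 4911 to 5827 (median 5382) normalized counts in HT shock, against 6987, 6668, 6732, 7047 and 7680.4 in WT shock. In HT control it had 5061 to 7869 (median 6934), and in WT control 6429 to 7573 (median 6994). Every HT shock library lay below every library of both WT groups, while HT control spanned both ranges with replicate 6 lowest. The log2 difference was -0.40 ± 0.08 (0.76-fold, limma adjusted p = 0.00777). Its relative Syt1, the fast sensor of forebrain terminals, overlapped between the groups at 40713 to 45570.2 in HT shock and 37428 to 45301 in WT shock, with a log2 difference of 0.03 ± 0.04 (95% interval -0.06 to 0.12). Syt7, a slower sensor of asynchronous release and vesicle replenishment, had a log2 difference of 0.00 ± 0.03 (95% interval -0.06 to 0.07).

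Doc2a, a high-affinity calcium-binding protein linked to spontaneous and asynchronous release (ENSMUSG00000052301, GRCm38 chr7:126847416-126852705, plus strand), had 1268 to 1433 (median 1332) in HT shock, against 1255, 1249, 1068, 1027 and 1023 in WT shock. It had 1029 to 1418 (median 1195) in HT control and 955 to 1286 (median 1113) in WT control. The shocked groups did not overlap, with WT shock replicates 1 and 2 close under the lowest HT shock library. The log2 difference was 0.26 ± 0.08 (1.19-fold, limma adjusted p = 0.0406). That call was lost in 7 of 23 fits that left out 1 library, namely those without HT shock replicate 1, 2, 3 or 4 or WT shock replicate 3, 4 or 5, with adjusted p up to 0.0922, and after the length and GC correction (0.18, adjusted p = 0.148). The related Doc2b had a log2 difference of opposite sign, -0.11 ± 0.05, which did not pass (limma adjusted p = 0.121). Rph3a, rabphilin 3A and an effector of Rab3, had -0.05 ± 0.03 (limma adjusted p = 0.241).

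Complexins and priming factors did not pass in HT shock against WT shock. Cplx2, complexin 2, a clamp and activator of assembled SNAREs in forebrain neurons (ENSMUSG00000025867, GRCm38 chr13:54371349-54383917, plus strand), had 29162 to 32000.3 (median 30961) normalized counts in HT shock, against 32953, 34923, 32182, 31966 and 32112 in WT shock. Its control values were 31234 to 32850.0 (median 31989.6) in HT control and 32047 to 34099.5 (median 33260.4) in WT control. Only the 2 highest HT shock libraries overlapped WT shock, and its log2 difference of -0.08 ± 0.03 missed the threshold (limma adjusted p = 0.0625). Cplx1, complexin 1, had -0.01 ± 0.03 (95% interval -0.07 to 0.05). Unc13a, Munc13-1, which opens syntaxin for SNARE assembly, had 0.02 ± 0.05 (95% interval -0.08 to 0.11). Its relative Unc13b, Munc13-2, had 0.06 ± 0.07 as fitted (adjusted p = 0.565), whereas after the length and GC correction it was higher in HT shock at 0.21 (limma adjusted p = 0.0181).

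At the active zone, 1 of 6 members passed between the shocked groups, and that call depended on single libraries. The background was 9.28% of all tested genes and 16.6% of those averaging at least 1000 normalized counts. Rims1, RIM1, a scaffold that binds Rab3, Munc13 and calcium channels (ENSMUSG00000041670, GRCm38 chr1:22286251-22805994, minus strand), had 5259 to 6145 (median 5578) normalized counts in HT shock, against 6199.9, 7407, 6924, 6523 and 6257 in WT shock. In HT control it had 4885 to 7133 (median 6382) and in WT control 5949 to 7294 (median 6818). The shocked groups lay apart by a small gap, and the lowest library of all was HT control replicate 6. Rims1 was lower in HT shock by a log2 difference of -0.23 ± 0.07 (0.85-fold, limma adjusted p = 0.0405). The call was lost in 10 of 23 fits that left out 1 library, those without HT shock replicates 1 to 5 or any WT shock library (adjusted p up to 0.109), and after the length and GC correction (-0.12, adjusted p = 0.125).

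Rims2, RIM2 (ENSMUSG00000037386, GRCm38 chr15:39198261-39684372, plus strand), had 3678 to 3865 (median 3728) in HT shock, against 4239, 4383, 4061, 3854 and 3727 in WT shock. In the controls Rims2 had 3329 to 4076 (median 3954) in HT control and 3821 to 4495 (median 4305) in WT control. The shocked groups overlapped, HT shock being the tightest group, and the log2 difference was -0.11 ± 0.05 (limma adjusted p = 0.158). Bsn, bassoon, a giant scaffold of the active zone, had 16599 to 17857 (median 17021) in HT shock, against 17416, 18154, 19569.6, 17487 and 16840.2 in WT shock. These groups overlapped too, with a log2 difference of -0.06 ± 0.04. Pclo, piccolo, the related scaffold, had -0.17 ± 0.07 (limma adjusted p = 0.116). Erc2, the active zone protein CAST, had 0.01 ± 0.05 (95% interval -0.09 to 0.11). Rab3a, the GTPase that recruits RIM and rabphilin to vesicles, had 0.09 ± 0.04 (limma adjusted p = 0.145).

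Among the vesicle proteins 3 of 8 members passed between the shocked groups. Background shares were 9.28% of all tested genes and 16.6% of those averaging at least 1000 normalized counts. Syn1, synapsin 1, which tethers the reserve pool of vesicles (ENSMUSG00000037217, GRCm38 chrX:20860511-20921004, minus strand), had 21794 to 24283 (median 23375) normalized counts in HT shock, against 20012, 19891, 20935, 21552 and 19042 in WT shock. Its controls lay at 20587 to 22450.0 (median 20675) in HT control and 19569 to 21343 (median 20464) in WT control. Every HT shock library exceeded every WT library, and of the HT control libraries only replicate 6 reached into the HT shock range. The log2 difference was 0.19 ± 0.04 (1.14-fold, limma adjusted p = 0.00523). Syn2, synapsin 2, had 0.07 ± 0.03 (limma adjusted p = 0.127). Syn3, synapsin 3, the least abundant synapsin per kilobase, had -0.28 ± 0.11 (limma adjusted p = 0.0908).

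Syp, synaptophysin, an abundant membrane protein of vesicles that binds synaptobrevin (ENSMUSG00000031144, GRCm38 chrX:7638471-7653256, plus strand), had 38786 to 43759 (median 41282) in HT shock, against 35541, 36469, 36401, 38023 and 36070.4 in WT shock. It had 36051 to 42666 (median 37745) in HT control and 34131 to 37009 (median 35732) in WT control. All HT shock libraries exceeded all WT libraries, and HT control replicates 5 and 6 lay within the HT shock range. The log2 difference was 0.17 ± 0.04 (1.13-fold, limma adjusted p = 0.00835). Sv2c, the least widespread of the SV2 vesicle glycoproteins and one found in basal ganglia (ENSMUSG00000051111, GRCm38 chr13:95954594-96132577, minus strand), had 1919 to 2799 (median 2322) in HT shock, against 3176, 2878, 3207, 3218 and 3568 in WT shock. Sv2c had 2038 to 3324 (median 3065) in HT control and 3071 to 3572 (median 3236) in WT control. Every HT shock library lay below every WT library, and HT control replicates 5 and 6 lay within the HT shock range. It was lower by a log2 difference of -0.47 ± 0.10 (0.72-fold, limma adjusted p = 0.0108), the largest of the 28 members. Sv2a, the widespread SV2 protein, had 0.01 ± 0.03 (95% interval -0.05 to 0.07), and Sv2b had 0.00 ± 0.05 (95% interval -0.09 to 0.09). Sypl2, a relative of synaptophysin known mainly from skeletal muscle, was sparse at 58.8 to 98.2 normalized counts in HT shock and 56.8 to 83.6 in WT shock, and its log2 difference of 0.32 ± 0.16 did not pass (limma adjusted p = 0.184).

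Without HT control replicate 6, which changes the pooled spread, 12 members passed between the shocked groups, against a background of 17.1%, and with library weights 14, against 22.1%. The calls of Syn1, Stx1a, Syp, Syt2 and Sv2c held in every one of 23 fits that left out 1 library and in 12 other settings. Of these settings, the looser threshold, an adjusted p of 0.1, keeps every call by construction. Leaving out a control library does not change the difference itself, only the pooled spread. Log2 differences ranged from 0.13 to 0.21 for Syn1, 0.27 to 0.39 for Stx1a and 0.11 to 0.19 for Syp. Those of Syt2 ranged from -0.43 to -0.31 and those of Sv2c from -0.53 to -0.34.

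**Figure D2:**
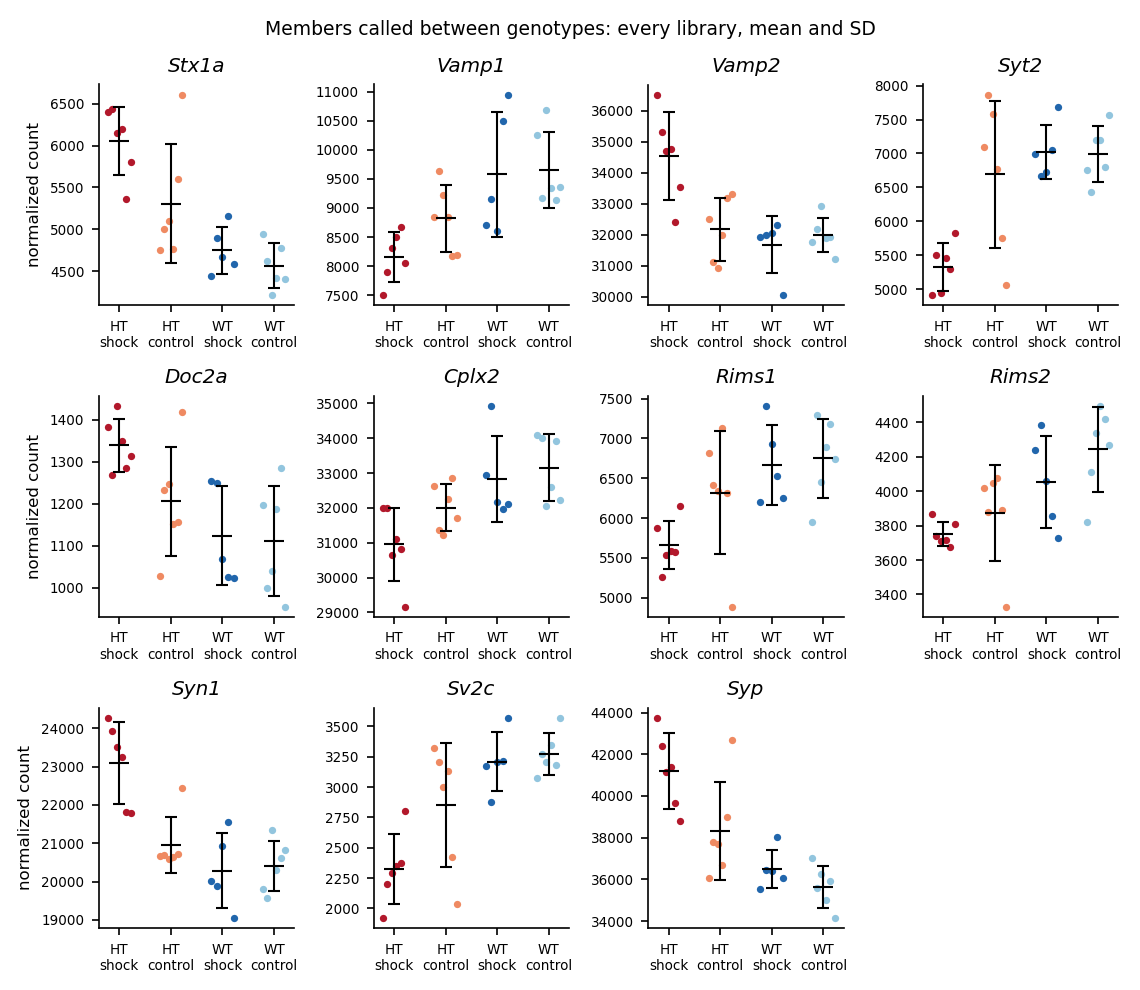
Normalized counts (vertical axes, each with its own range and not starting at 0) of the 11 members called between genotypes, with a point for each library and bars for the mean and SD of HT shock, HT control, WT shock and WT control. HT shock lies apart from both WT groups for Syn1, Stx1a, Syp, Syt2 and Sv2c, and the HT control library farthest toward HT shock in these 5 members is replicate 6.

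Averaged over treatments, HT against WT called 11 of 28 members, against a background of 14.0% of tested genes. Of the 26 members averaging at least 1000 normalized counts 42.3% were called, against 24.8% of the 6483 tested genes at such levels. This comparison uses the same libraries as the one above and 12 control libraries. Higher were the same 5 genes, Syn1, Stx1a, Vamp2, Syp and Doc2a (background 5.42%), and lower were Syt2, Sv2c, Vamp1, Rims1, Rims2 and Cplx2 (background 8.62%). Stx1a had the smallest p, with a log2 difference of 0.28 ± 0.05 (SE, limma adjusted p = 0.00163), and Syp followed at 0.14 ± 0.03 (limma adjusted p = 0.00245). Sv2c was lower in HT, at -0.34 ± 0.07 (limma adjusted p = 0.00466), as were Syt2 at -0.24 ± 0.06 and Vamp1 at -0.18 ± 0.04. Rims2 at -0.12 ± 0.03 (limma adjusted p = 0.0235) and Cplx2 at -0.07 ± 0.02 (limma adjusted p = 0.0275) passed here and not between the shocked groups alone. Those calls and that of Rims1 were lost without WT shock replicate 2, with adjusted p of 0.0504 for Rims2, 0.0616 for Cplx2 and 0.0547 for Rims1. The averaged call of Vamp2, at 0.07, was kept in 17 of 23 fits that left out 1 library. It was lost without HT shock replicate 1, 2 or 3, HT control replicate 5, WT shock replicate 5 or WT control replicate 6, with limma adjusted p up to 0.0619. After the length and GC correction 8 members passed, against a background of 6.48%: Stx1a, Syp and Unc13b higher, and Syt2, Sv2c, Vamp1, Cplx1 and Rph3a lower.

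Without shock, HT control against WT control called 0 of 28 members and 0.0% of tested genes at an adjusted p under 0.05 (limma), while 6 members and 11.1% of tested genes had an unadjusted p under 0.05. Groups overlapped for all 28 members, against a background of 0.421% of genes without overlap. The smallest p belonged to Stx1a, with a log2 difference of 0.21 ± 0.06 (limma adjusted p = 0.34), Syp at 0.10 ± 0.03 and Rims2 at -0.13 ± 0.05. Stx1a averaged 5306 ± 708 in HT control and 4567 ± 271 in WT control (SD, n = 6 each). After the length and GC correction 0 members passed (background 0.00585%). Without HT control replicate 6 the Stx1a difference was 0.14 ± 0.05 (limma adjusted p = 0.751). Syt2, Sv2c and Vamp1 had differences of -0.40 ± 0.08, -0.47 ± 0.10 and -0.23 ± 0.06 between the shocked groups, and -0.08 ± 0.08, -0.22 ± 0.10 and -0.13 ± 0.06 between the unshocked groups.

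**Figure D3:**
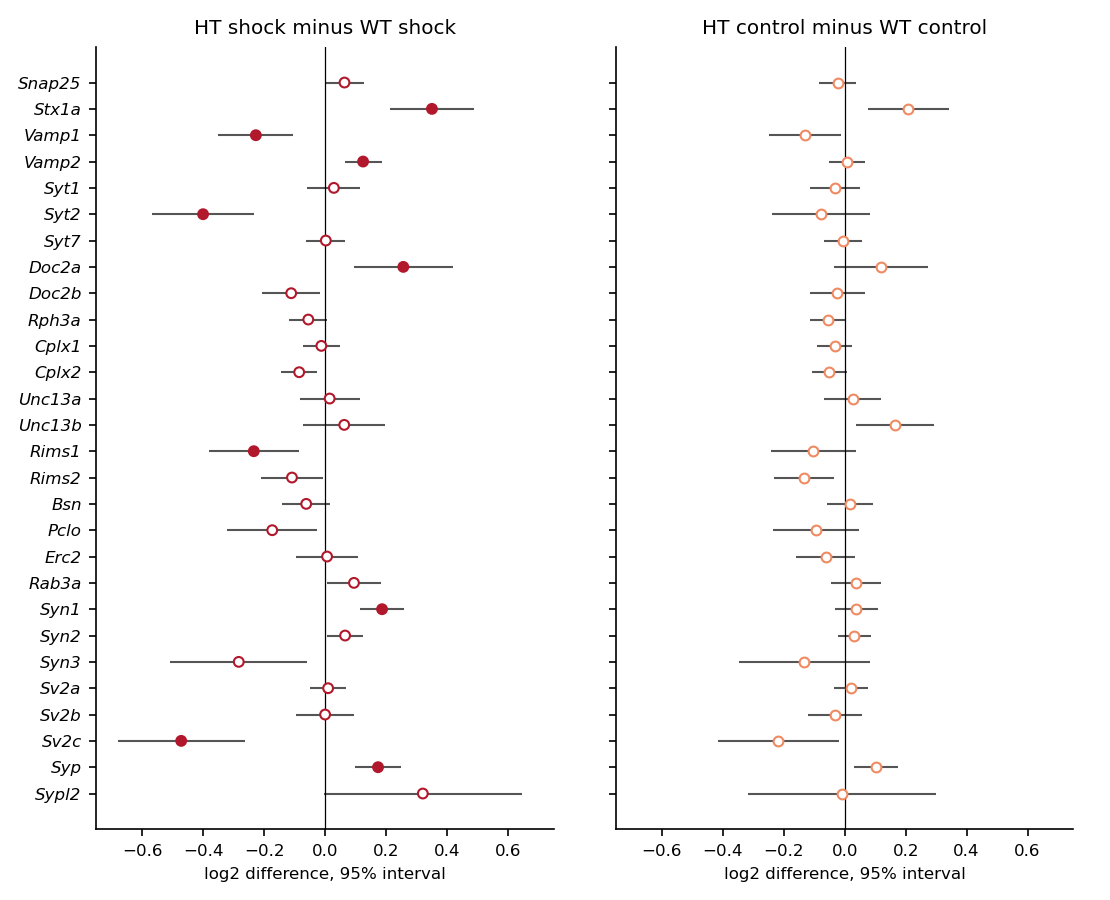
Log2 differences with 95% intervals (horizontal axes) for each of the 28 members (down the page, by role) in HT shock minus WT shock (left) and HT control minus WT control (right), with filled points for members past an adjusted p of 0.05. The 9 filled points are all on the left, and the right-hand intervals of Stx1a, Syp, Unc13b, Vamp1, Rims2 and Sv2c exclude 0 without passing the adjusted threshold.

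Whether the genotypes differed in their response to shock was tested as the interaction, and 0 of 28 members passed (limma, background 0.0%; 3 members and 6.43% of tested genes had an unadjusted p under 0.05). With library weights, estimated from each library's fit, 0 members passed (background 0.0117%), as without HT control replicate 6 (background 0.00584%) and after the length and GC correction (background 0.00585%). The 3 members were Syn1 with an interaction of 0.15 ± 0.05 (limma adjusted p = 0.689), Vamp2 with 0.12 ± 0.04 and Syt2 with -0.32 ± 0.11. The calls between shocked groups, absent between unshocked groups, are therefore not shown to differ between them.

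Shock within the mutants, HT shock against HT control, called 0 of 28 members and 0.0% of genes with all libraries (limma), while 9 members and 13.7% of genes had an unadjusted p under 0.05. All 28 members overlapped between these groups, against a background of 0.286% of genes without overlap. After the length and GC correction 0 members passed (background 0.0234%). With library weights 10 passed, against a background of 16.3%. Without HT control replicate 6 the comparison called 7 members, against a background of 12.1% of genes. Higher in HT shock were then Syn1 at 0.16 ± 0.03 (SE, limma adjusted p = 0.00435), Stx1a at 0.26 ± 0.05, Syp at 0.14 ± 0.03 and Vamp2 at 0.11 ± 0.03. Lower were Syt2 at -0.39 ± 0.06 (limma adjusted p = 0.00154), Sv2c at -0.38 ± 0.08 and Rims1 at -0.22 ± 0.05. With all libraries the differences were 0.14 ± 0.03 for Syn1 (limma adjusted p = 0.212), -0.32 ± 0.08 for Syt2 and 0.10 ± 0.03 for Vamp2. The labels give no reason to leave the library out, so the result with all libraries stands beside the other.

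Shock within wild type, WT shock against WT control, called 0 of 28 members and 0.0% of genes (limma), with 0 members and 3.72% of genes at an unadjusted p under 0.05. Groups overlapped for all 28 members, against a background of 0.374% without overlap. Snap25 had the smallest p, with a log2 difference of -0.05 ± 0.03 (95% interval -0.12 to 0.01, limma adjusted p = 0.998). In this comparison Snap25 had 76987, 81037, 79674, 77799.5 and 76539 normalized counts in WT shock, against 76497 to 84696 (median 81304) in WT control. Rims2 had -0.07 ± 0.05 and Bsn 0.05 ± 0.04. Bsn overlapped between the groups, with the single highest library in WT shock replicate 3. Over the 28 members, differences lay between -0.12 and 0.06 on the log2 scale. Averaged over genotypes, shock against control called 0 members (background 0.0%), with 6 members and 9.08% of genes at an unadjusted p under 0.05. The smallest p were those of Syp at 0.07 ± 0.03 (limma adjusted p = 0.541), Stx1a at 0.13 ± 0.05 and Syt2 at -0.15 ± 0.06. Without HT control replicate 6 this comparison called 4 members (Syt2, Stx1a, Sv2c and Syp), against a background of 4.01%, and with library weights 4, against 3.35%.

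Related genes were set against each other as log2 ratios within a library, 8 ratios in 4 comparisons, with 32 exact two-sided permutation tests adjusted together. Between the shocked groups the balance lay toward Vamp2, Syt1 and Sv2a in HT shock. The Vamp1/Vamp2 log2 ratio was -2.28 to -1.90 in HT shock and -1.90 to -1.46 in WT shock, a difference of -0.35 (exact p = 0.00433, adjusted p = 0.0693). The 2 groups met at that edge without overlapping. The Syt2/Syt1 log2 ratio was -3.21 to -2.86 in HT shock and -2.76 to -2.28 in WT shock, a difference of -0.43 with no overlap (exact p = 0.00433, adjusted p = 0.0693). The Sv2c/Sv2a log2 ratio was -3.28 to -2.62 in HT shock and -2.69 to -2.31 in WT shock, a difference of -0.48 (exact p = 0.00866, adjusted p = 0.0693). The Syn1/Syn2 log2 ratio was 0.55 to 0.73 in HT shock and 0.45 to 0.59 in WT shock, a difference of 0.12 (exact p = 0.013, adjusted p = 0.0693). An exact p of 0.00433 is the smallest that 6 against 5 libraries allow, and none of the 32 tests passed after adjustment. The Sv2b/Sv2a ratio differed by -0.01 (exact p = 0.892). Without HT control replicate 6, the ratios Vamp1/Vamp2, Syt2/Syt1 and Rims1/Rims2 passed in HT shock against HT control, at -0.24, -0.39 and -0.14 (exact adjusted p = 0.0462 each).

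**Figure D4:**
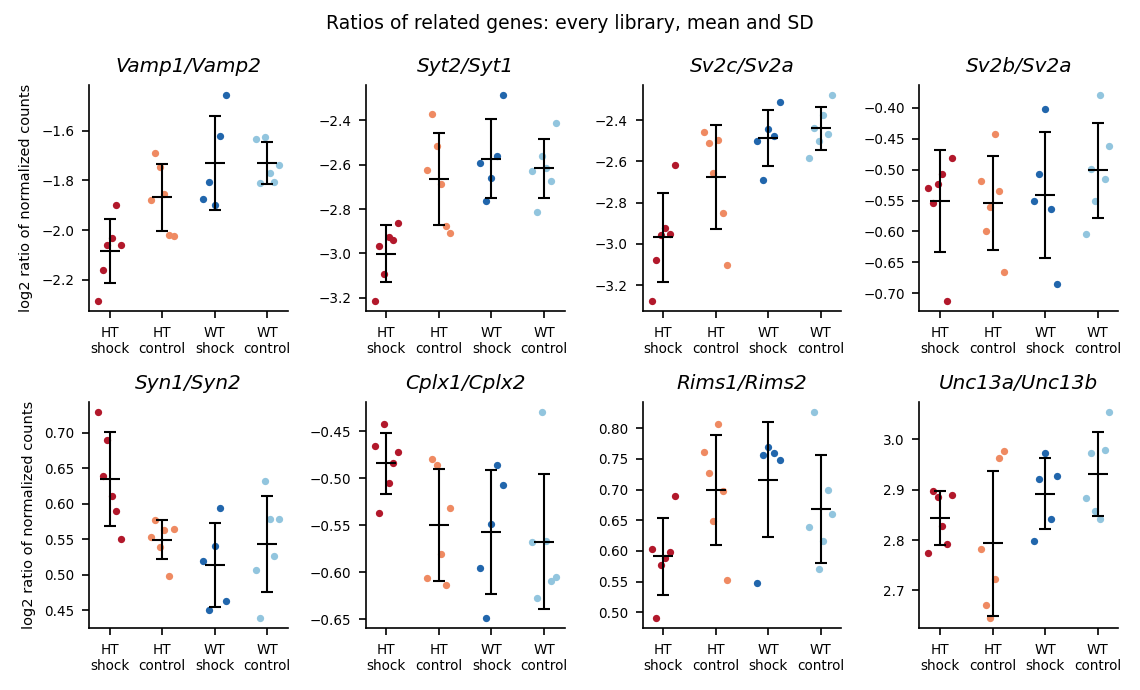
Log2 ratios of normalized counts (vertical axes, each with its own range) for 8 pairs of related members, with a point for each library and bars for the mean and SD of HT shock, HT control, WT shock and WT control. The Syt2/Syt1 ratio lies lower in all HT shock libraries (-3.21 to -2.86) than in any WT shock library (-2.76 to -2.28), while Sv2b/Sv2a overlaps in all groups.

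The differences moved with transcript length. Over the 28 members, the difference between HT shock and WT shock had a Spearman correlation of -0.54 with transcript length and 0.33 with its GC content, and over 17106 genes the values were -0.37 and 0.34. These are descriptions across genes, which are not independent. The 5 members called higher had transcripts of 2162 to 3261 bases, and of the lower ones Rims1, Syt2 and Sv2c had 6446 to 9101 bases, with Vamp1 at 3011. Members under 2500 bases had a median difference of 0.09 (5 members), those over 5000 bases -0.03 (10 members), against 0.07 and -0.11 for all genes of these lengths. Per library, the longest decile of transcripts minus the shortest decile deviated by -0.24 to -0.02 in HT shock, -0.39 to 0.22 in HT control, -0.001 to 0.17 in WT shock and -0.04 to 0.23 in WT control (log2), with HT control replicate 6 lowest. After each library was corrected for length and GC, 7 members passed in HT shock against WT shock, against a background of 4.86%. Higher were Syn1 at 0.13, Stx1a at 0.27, Syp at 0.11 and Unc13b at 0.21, and lower were Syt2 at -0.31, Vamp1 at -0.25 and Sv2c at -0.34. The long transcripts of Bsn (15938 bases) and Pclo (20084 bases) had corrected differences of -0.02 and -0.04. What set the length pattern was not tested.

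**Figure D5:**
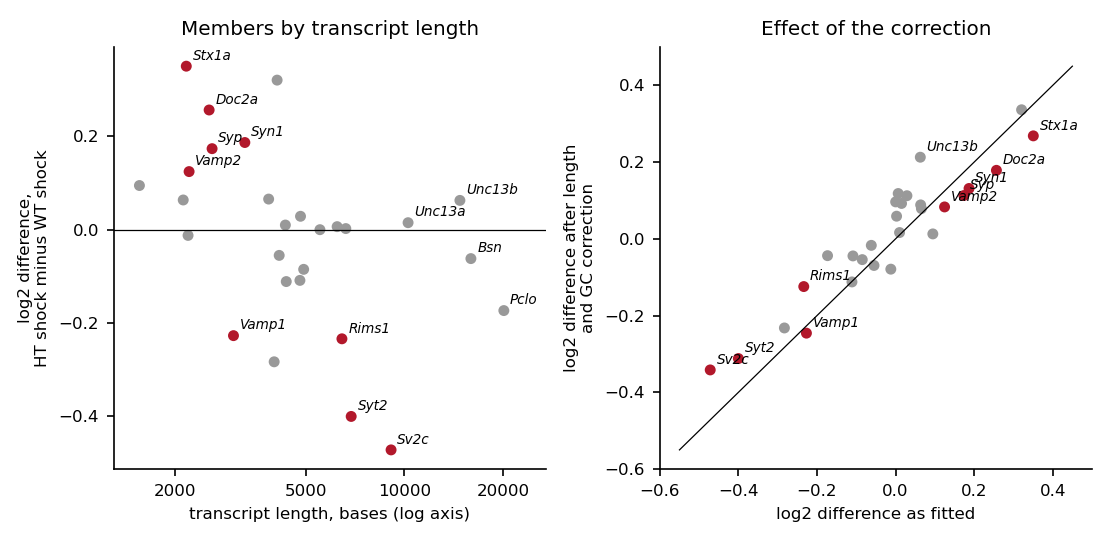
Left, log2 difference of each of the 28 members in HT shock minus WT shock against transcript length on a log axis; right, the difference after the length and GC correction against the difference as fitted, with a line of equality, and red points for members called as fitted. The members called higher lie at short lengths, and the correction moves Rims1 and Vamp2 toward 0 while Syt2, Sv2c, Vamp1 and Stx1a stay apart from it.

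Markers of regions and cell types moved with the same comparison, and their part in the members' differences was not tested. Of 12 striatal projection neuron markers 9 were lower and 0 higher in HT shock against WT shock (median -0.46), with a summed level of 30407 to 44825 normalized counts in HT shock and 49562 to 50500.4 in WT shock. Of 10 cortical glutamatergic markers 5 were higher and 0 lower (median 0.18), with 51292 to 61419 in HT shock and 45720.5 to 51884 in WT shock. Oligodendrocyte markers were lower in 7 of 10, with 193662 to 242051 in HT shock and 233602 to 294951 in WT shock. Brainstem and spinal markers, where Syt2 and Vamp1 are prominent, were lower in 2 of 12, with 5088 to 6573 in HT shock and 6254 to 8291 in WT shock. Parvalbumin interneuron markers were lower in 2 of 8, thalamic ones in 3 of 10, cerebellar ones in 2 of 12, midbrain dopamine ones in 3 of 6 and astrocyte ones in 3 of 9, with 0 higher in each. Pan-neuronal markers were higher in 5 and lower in 1 of 15, with summed levels of 241485 to 243783 in HT shock and 234316 to 246378 in WT shock. Microglial, endothelial and choroid plexus markers had 0 of 7 called each. These counts stand beside 3.95% of all tested genes higher and 5.33% lower. After the length and GC correction, 4.86% of all tested genes were called in either direction. The lower calls were then 10 of 12 for striatal, 4 of 10 for oligodendrocyte and 0 of 12 for brainstem and spinal markers. They were 1 of 8 for parvalbumin and 2 of 10 for thalamic markers. Midbrain dopamine and astrocyte markers kept a count of 3 lower each, cerebellar markers had 1 higher and 1 lower, cortical markers 4 higher and pan-neuronal markers 3 higher and 0 lower. No marker was at 0 in all libraries of a group.

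The rest of the release pathway also held calls in both directions between the shocked groups. Over all tested genes 3.95% were higher and 5.33% lower in this comparison, the background for the counts of each list. Of 52 other release machinery genes 8 were higher and 5 lower in HT shock against WT shock. Unc13c, Munc13-3, prominent in the cerebellum, had 2106 to 2545 normalized counts in HT shock and 2984 to 3528 in WT shock, a log2 difference of -0.52 ± 0.09 (SE, limma adjusted p = 0.0037). Higher were Sncb, beta-synuclein, at 0.20 ± 0.04 (SE, limma adjusted p = 0.0114), and the vesicle protein gene Syngr3 at 0.16 ± 0.04 (SE, limma adjusted p = 0.0181). Of 25 vesicle endocytosis genes 2 were higher and 3 lower. Dnm1, dynamin 1, which cuts vesicles from the membrane, was higher at 0.18 ± 0.04 (SE, limma adjusted p = 0.0137). Dnm3, dynamin 3, was lower at -0.23 ± 0.07 (SE, limma adjusted p = 0.0309), as were the adaptor Ston2 at -0.46 ± 0.12 (SE, limma adjusted p = 0.0236) and the endophilin Sh3gl2 at -0.15 ± 0.04 (SE, limma adjusted p = 0.0303). Averaged over treatments, 8 and 8 of the 52 and 3 and 5 of the 25 were called higher and lower, against 5.42% and 8.62% of all tested genes.

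Of 24 vesicle filling genes 8 were higher and 3 lower in HT shock against WT shock. The vesicular glutamate transporters took opposite directions. Slc17a7, VGLUT1 of cortical terminals and also a listed cortical marker, had 32715 to 39606 normalized counts in HT shock and 28503 to 32509.7 in WT shock, a log2 difference of 0.25 ± 0.05 (SE, limma adjusted p = 0.0045). Slc17a6, VGLUT2 of thalamic and brainstem terminals and also a thalamic marker, had 2001 to 2446 in HT shock and 2579 to 2954 in WT shock, a difference of -0.33 ± 0.08 (SE, limma adjusted p = 0.0201). For both transporters the libraries of HT shock and WT shock did not overlap. Slc10a4, a vesicle protein of cholinergic and monoaminergic neurons, was lower at -0.81 ± 0.14 (SE, limma adjusted p = 0.0037), and Atp6v1g2, a subunit of the vesicle proton pump, was higher at 0.15 ± 0.03 (SE, limma adjusted p = 0.0115). Averaged over treatments 7 were higher and 3 lower. After the length and GC correction the calls higher and lower between the shocked groups were 5 and 2 of the 52 release genes, 3 and 1 of the 25 endocytosis genes, and 3 and 4 of the 24 filling genes, against 4.86% of all genes called in either direction. In the other 5 comparisons 0 genes of these 3 lists were called with all libraries (limma), as were 0 members.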

How the data were processed

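The authors deposited 1 table of normalized counts with decimals per gene and library, a signal rather than raw counts, from brain RNA prepared with a stranded mRNA kit per the labels' protocols. The build GRCm38 and the tools DESeq2 1.26.0, Salmon 1.1.0 and R 3.6.2 are listed per the submitters' processing notes, without their roles. Of 24 library columns, 1 matched no sample and was not used. Whole reads could not be recovered, since 23.2% to 56.3% of low values (up to 20) per library lay within 0.1 of a whole multiple, so no count model or counting interval was made. WT shock replicate numbers follow the titles, which differ from the bracketed names. The labels give no batch. Within groups the median correlation of a library was 0.9856 to 0.9900, and no pair (highest 0.9908) was treated as duplicates.

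Symbols were matched by Ensembl ID in GENCODE (GRCm38) for 18563 of 18578 genes. Values were transformed as log2(normalized count + 1), on which all differences are given, and which understates changes of low genes. After removal of genes averaging under 10 normalized counts, 17118 were fitted with limma 3.58.1 (statmod 1.5.0, R 4.3.3), 4 groups in 1 model with a mean-variance trend and robust moderation, tested in 7 contrasts with Benjamini-Hochberg adjustment over all tested genes and a threshold of 0.05. The contrasts share libraries. The length and GC correction covered 17106 genes. It subtracts from each library a natural spline fit (5 degrees of freedom each) of its deviations on transcript length and GC content. Ratios of related genes were tested by exact permutation (SciPy 1.17.1). Figures were drawn with matplotlib 3.10.9.

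The members, the 3 pathway lists and the 13 marker lists were chosen with earlier results of these data known. For members called in any comparison, values are given for single libraries in WT shock and as range and median in the other groups. The same holds for the 3 with the smallest p in each comparison, though Snap25 and Bsn have such values for some groups only. Of each pathway list up to 4 called genes by smallest p are given, and list genes in the closing section follow the same rule. A gene that this rule names is not reported here. Vamp7 of the release list was not matched to the gene table. Alternatives were median centring, no filter, at least 20 in at least 5 libraries, pseudocounts of 0.5 and 5, an adjusted p of 0.1, only the compared groups in the fit (not for contrasts over all 4 groups), the replicate block, library weights, the length and GC correction and the omission of each library; the correction joined with the omission of HT control replicate 6, and the alternatives for the ratios, were added after seeing the data.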

Additional observations from a re-analysis of the deposited data

Results flagged for a closer look

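In each member and group the gap between the most distant library and the next one was set against the range of the group. This gave 112 group values in all, of which chance alone sets apart about 1 in 20. Of these, 6 values stood apart from their group, a count close to that chance rate, and 4 of the 6 belonged to HT control replicate 6. In that library Syn1 was highest at 22450.0 normalized counts, the other HT control libraries lying at 20586.5 to 20728.3. Rims1 was lowest there at 4884.9, the others at 6312.2 to 7133.0. Rims2 was lowest at 3328.6, the others at 3878.0 to 4076.1, and Erc2 was lowest at 3308.4, the others at 3641.1 to 3797.5. Vamp2 was lowest in WT shock replicate 5 at 30047.6, the other WT shock libraries lying at 31921.6 to 32326.4. Sv2b was lowest in HT shock replicate 5 at 11226.4, the other HT shock libraries lying at 12301.3 to 12883.1.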

How the results depend on the processing

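Of the 28 members, 6 to 12 were called in HT shock against WT shock when each of 23 libraries was left out in turn (9 with all), 8 to 13 in HT against WT averaged over treatments (11 with all), 0 to 7 in HT shock against HT control (0 with all) and 0 to 4 in shock against control averaged over genotypes (0 with all). HT control against WT control, WT shock against WT control and the interaction stayed at 0 in each. The share of all tested genes called also moved without HT control replicate 6. In HT shock against WT shock it was then 17.1%, against 9.28% with all libraries. In HT against WT averaged over treatments it was 11.3%, against 14.0%. Without that library, HT shock against HT control called 7 members (background 12.1%) and the averaged shock comparison 4 (background 4.01%). With the length and GC correction added, 3 members were called in the first and 7 in the averaged genotype comparison. Their background shares are not given here. Library weights called 14 in HT shock against WT shock (background 22.1%), 10 in HT shock against HT control (background 16.3%) and 4 in the averaged shock comparison (background 3.35%). The cause of these shifts was not tested. No called member and none of the ratio results recomputed changed direction under the settings run for them. Calls were counted alike, within 1.5 times, under median centring, no filter, a stricter filter and pseudocounts of 0.5 and 5.

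Deviations of same-numbered libraries from their group means correlated at -0.15 to 0.19 over all tested genes. Differently numbered libraries were not compared, so these values do not decide whether replicate numbers pair the libraries. With the replicate number of the titles as a block, 4 members were higher and 2 lower in HT shock against WT shock (background 2.63%) and 3 higher and 4 lower (7 in all, background 8.79%) in the averaged genotype comparison. Under it Vamp1, Rims1 and Doc2a were not called between the shocked groups, and Vamp2, Rims1, Rims2 and Doc2a not in the averaged comparison. With the numbers of the bracketed names the counts were 4 and 3 (background 5.7%), without Rims1 and Doc2a, and 4 and 7 (background 12.3%), without Vamp2 and with 1 further lower member. Depth is unknown, so counting error of the sparse Sypl2 and Syn3 could not be separated from the spread between libraries.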

Other observations

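Further genes of the wider pathway were called in HT against WT averaged over treatments (limma). Syt6, a synaptotagmin, lay at 1233 to 1405 normalized counts in HT shock, 1205 to 1595 in HT control, 1439.6 to 1594 in WT shock and 1512 to 1593 in WT control. It was lower in HT by a log2 difference of -0.18 ± 0.04 (SE, limma adjusted p = 0.00547). Amph, amphiphysin, which recruits dynamin in endocytosis, was higher in HT at 0.08 ± 0.02 (SE, limma adjusted p = 0.0138). Its libraries lay at 6658 to 6941 in HT shock, 6318 to 6791 in HT control, 6175 to 6555 in WT shock and 6085 to 6520.3 in WT control. Atp6v0d1, a subunit of the proton pump that powers vesicle filling, was higher in HT at 0.13 ± 0.03 (SE, limma adjusted p = 0.00479). No explanation of these values was tested.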
